A study of Mus musculus with 2 samples.

Results

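Interleukin 6 and interleukin 17 act on cells through a small set of receptor chains and downstream regulators, and 9 of their genes were followed across spleen cell classes after skin grafting. They were chosen by name: the receptor chains Il6ra, Il6st and Il17ra, the signal carrier Stat3, its brake Socs3, and the transcription factors Hif1a, Maf, Rora and Ahr, which are 9 of the 32285 genes counted in the files. The rule goes by gene name and uses no measured value, but the genes were chosen with earlier results of these data known. The study concerns Th17 cells, helper T cells named for the cytokine they make, in mice that were sensitized to a human HLA molecule. The ALLO library came from spleen of wild-type C57BL/6 recipients grafted at weeks 0 and 5 with tail skin of C57BL/6-Tg(HLAA2.1)1Enge/J donors, transgenic for a human HLA class I gene. The SYN library came from spleen of C57BL/6 recipients given skin of wild-type C57BL/6 donors by the same procedure. In both groups donors and recipients were anesthetized with Zoletil and Rompun, and spleens were taken 4 weeks after the second graft, frozen, thawed and depleted of dead cells. Single cells were captured with the 10x Chromium 5′ v2 chemistry, so each unique molecular identifier (UMI) counts 1 captured transcript 5′ end.

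Interleukin 6 binds the receptor chain encoded by Il6ra, and the complex then recruits gp130, the shared signalling chain encoded by Il6st. Signalling through gp130 leads to phosphorylation of STAT3, which enters the nucleus and switches on genes that include its own inhibitor Socs3. In helper T cells this route, with TGF-beta, starts the Th17 programme, to which RORalpha, c-MAF, HIF-1alpha and the aryl hydrocarbon receptor contribute, while IL-17RA on target cells receives the interleukin 17 those cells secrete.

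In these libraries Il6ra and Il6st were at their lowest or next to lowest in B cells, and CD4 T cells had the highest Il6ra level, in SYN within counting error of myeloid cells. In CD4 T cells the ALLO library had more Maf, Hif1a and Rora and less Socs3 than the SYN library, while Il6ra, Il6st, Il17ra and Stat3 had ratios between 0.835 and 1.03. In Foxp3+ T cells Il17ra and Stat3 were lower in ALLO. UMIs of Il17a were found in 1 ALLO barcode and in no SYN barcode, so the 9 genes were measured here almost without UMIs of the cytokine that names the pathway.

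Upstream sequence from RefSeq is shown for Socs3 and Hif1a, because both passed 1.5-fold between the libraries in CD4 T cells and a base pattern that fits their pathway lies there. Of the 9 genes, 6 had a RefSeq promoter entry (build GRCm38.p6), and Il17ra, Maf and Ahr had none. The 250 bases before each annotated start were searched on both strands for TTCNNNGAA, the core pattern bound by STAT factors, and for ACGTG, the core of the hypoxia response element, with overlapping matches counted. TTCNNNGAA was found in 7.02% of the 32851 promoters searched and ACGTG in 16.6%. A stricter STAT pattern, TTCCNGGAA, was found in 0.913%, and GCGTG, searched for the AHR pathway, in 28.2%. Capitals mark the matches.
Socs3 (chr11:117969367-117969616, minus strand): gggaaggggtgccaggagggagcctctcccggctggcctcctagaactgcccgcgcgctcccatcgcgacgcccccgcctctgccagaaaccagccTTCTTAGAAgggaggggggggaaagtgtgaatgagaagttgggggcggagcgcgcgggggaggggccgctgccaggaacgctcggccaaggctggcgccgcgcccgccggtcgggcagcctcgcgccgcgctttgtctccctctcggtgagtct
Hif1a (chr12:73907617-73907866, plus strand): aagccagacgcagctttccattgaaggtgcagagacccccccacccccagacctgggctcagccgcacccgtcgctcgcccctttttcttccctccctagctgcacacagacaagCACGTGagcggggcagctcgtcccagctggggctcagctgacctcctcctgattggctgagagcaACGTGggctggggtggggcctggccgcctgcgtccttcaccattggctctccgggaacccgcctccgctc
Socs3 held TTCNNNGAA 1 time, starting 154 bases before the annotated start, and had no ACGTG. Hif1a held ACGTG 3 times, starting 135, 134 and 70 bases before the start, of which the first 2 are a single CACGTG read on the 2 strands, and had no TTCNNNGAA. Both windows lie inside the gene as GENCODE vM21 draws it on GRCm38, because that annotation has transcripts that start further upstream. The Socs3 window also overlaps an exon of a noncoding Socs3 transcript there. Il6ra had 2 ACGTG matches and Rora had 1, while Il6st and Stat3 had no match to TTCNNNGAA or ACGTG. Of the 6 genes none had TTCCNGGAA, so the Socs3 match is to the looser STAT pattern only. GCGTG was found in Rora alone, 1 time. A match is a string of letters and not a measured binding site.

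The ALLO library held 11185 barcodes and the SYN library 17777, of which 9926 and 11267 had at least 1000 UMIs and were used. With 1 library per group there was no replicate and no test, and each ratio compares these 2 libraries and not the treatments. How many animals each library holds is not stated in the labels. All intervals of levels, ratios and shares are exact, at 95%, and cover counting error only. Barcodes were gated on a few genes, none of them a member, into B cells (6980 in ALLO and 6822 in SYN), Foxp3+ T cells (135 and 158), CD4 T cells without Foxp3 (529 and 823), CD8 T cells (754 and 884), gamma delta T cells (59 and 51) and myeloid cells (38 and 175). Median depth was close in the lymphoid classes, at 4192 UMIs in ALLO and 4083 in SYN CD4 T cells and 3177 and 3002 in B cells, but was 4523 in ALLO and 2199 in SYN myeloid cells. Of the used barcodes, 57 in ALLO and 142 in SYN met more than 1 gate, and 161 barcode sequences occurred in both libraries.

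The B cell and regulatory T cell marker lists hold no gating gene. Summed CPM (UMIs of a gene scaled to 1000000 UMIs of its class) of 4 regulatory T cell genes was 1418 in ALLO and 1204 in SYN Foxp3+ T cells, against 210.5 and 143 in CD4 T cells. Of 6 gamma delta T cell markers 3 were symbols in the files. They summed to 766 CPM in ALLO and 732 CPM in SYN gamma delta T cells, of which the gating gene Trdc gave 739 and 676 CPM. B cells had 312 and 276 CPM, nearly all from Blk (312 and 275 CPM). The non-gating markers were low in gamma delta T cells, Blk at 16.6 and 52.3 CPM and Sox13 at 9.94 and 3.74 CPM. Apart from Trdc only Sox13 stood above its B cell level, which was 0.0388 CPM in ALLO and 0.0432 CPM in SYN. It did so from 3 UMIs in ALLO and 1 UMI in SYN gamma delta T cells, while Blk was below its B cell level. The 3 CD8 T cell markers summed to 1323 CPM in ALLO and 1069 CPM in SYN gamma delta T cells. In CD8 T cells the sum was 1509.9 and 1407 CPM. Nkg7 alone gave 1173 and 942 CPM in gamma delta T cells. Cd8a was 33.1 and 59.8 CPM there against 380 and 416 CPM in CD8 T cells, and Dapl1 116 and 67.3 against 247 and 256 CPM. Natural killer cell markers, 3 genes, summed to 143 and 228 CPM in gamma delta T cells and 54.6 and 41.5 CPM in CD8 T cells. B cell marker RNA was present outside B cells: its 5 genes, all detected, summed to 2694 and 3698 CPM in Foxp3+ T cells, 2727 and 3862 CPM in CD8 T cells, 921 and 4148 CPM in gamma delta T cells and 7028 and 7956 CPM in myeloid cells, in ALLO and SYN in that order. In CD4 T cells, whose gate excludes Cd79a, the same sum was 182 CPM in ALLO and 177 CPM in SYN. Neutrophil markers, 4 genes, summed to 5.53 CPM in ALLO (Csf3r and Retnlg at 0) and 124 CPM in SYN CD4 T cells, and to 4.63 and 791 CPM in CD8 T cells. Haemoglobin genes, 3 of 3 detected, summed to 45.1 CPM in ALLO and 2.06 CPM in SYN CD4 T cells, and to 1.95 and 103.5 CPM in CD8 T cells. The part of these other cells' transcripts in the results was not tested.

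Il6ra, the ligand-binding chain (ENSMUSG00000027947, chr3:89864059-89913196), had 161 CPM in ALLO and 156 CPM in SYN CD4 T cells, from 378 and 529 UMIs. Foxp3+ T cells had 89.2 CPM in ALLO and 114 CPM in SYN, and CD8 T cells had 68.3 and 74.6 CPM. B cells had 17.6 CPM in ALLO and 20.2 CPM in SYN. CD4 T cells thus stood 9.13-fold above B cells in ALLO (7.94-fold at the lower bound) and 7.69-fold in SYN (6.78-fold at the lower bound). Among these T cells the order was CD4, then Foxp3+, then CD8 in both libraries, and CD4 exceeded CD8 T cells 2.35-fold in ALLO and 2.09-fold in SYN. In ALLO the interval of the step between Foxp3+ and CD8 T cells spanned 1. Myeloid cells had 99.0 CPM in ALLO and 154 CPM in SYN, next below CD4 T cells in both libraries and within counting error of them in SYN. Gamma delta T cells gave 10 UMIs in ALLO and 5 in SYN, too few to place against B cells.

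The share of cells with an Il6ra UMI was compared at equal depth, after each cell was thinned to 1000 UMIs. It was 13.8% of ALLO and 15.1% of SYN CD4 T cells, against 2.01% and 1.91% of B cells. Without thinning the shares were 45.2% and 43.1% of CD4 T cells and 5.95% and 6.13% of B cells. Between the libraries Il6ra did not differ beyond counting error in CD4 T cells, with an ALLO over SYN ratio of 1.03 and an interval from 0.902 to 1.18. In B cells the ratio was 0.870, with an interval from 0.763 to 0.992.

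Il6st, which encodes gp130 (ENSMUSG00000021756, chr13:112464070-112510086), had 71.0 CPM in ALLO and 85.0 CPM in SYN CD4 T cells. The values were 77.1 and 67.9 CPM in Foxp3+ T cells and 61.7 and 57.8 CPM in CD8 T cells. Gamma delta T cells had 56.3 CPM in ALLO and 48.6 CPM in SYN. No neighbouring pair among these 4 T cell classes differed beyond counting error in either library. Across the order, CD4 exceeded CD8 T cells 1.15-fold in ALLO (0.941 to 1.41) and 1.47-fold in SYN (1.24 to 1.75). B cells were last, with 5.70 CPM in ALLO and 7.12 CPM in SYN, and CD4 T cells stood 12.5-fold above them in ALLO and 11.9-fold in SYN. Myeloid cells were the next lowest, at 29.7 CPM from 6 UMIs in ALLO and 42.9 CPM from 31 UMIs in SYN. None of the 6 ALLO over SYN ratios of Il6st had an interval off 1.

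**Figure D1:**
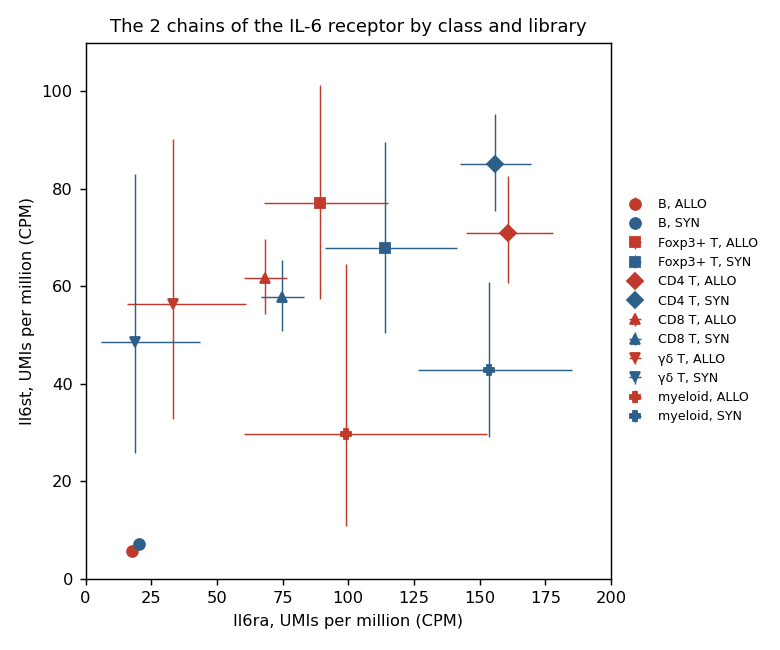
Level of Il6st (vertical axis, CPM) against Il6ra (horizontal axis, CPM) in each class (symbol) of ALLO (red) and SYN (blue), with exact 95% Poisson intervals of each sum. B cells lie in the lower left corner at 17.6 and 20.2 CPM of Il6ra, and CD4 T cells lie at the right at 161 and 156 CPM.

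Because the membrane receptor needs both chains, cells with a UMI of each were counted. Both were seen in 62 of 529 ALLO (11.7%) and 101 of 823 SYN CD4 T cells (12.3%), against 11 of 6980 ALLO and 17 of 6822 SYN B cells. The shares were 7.41% in ALLO and 10.1% in SYN Foxp3+ T cells, 7.56% and 8.03% in CD8 T cells and 5.26% and 8% in myeloid cells. Of CD4 T cells with Il6ra 25.9% in ALLO and 28.5% in SYN had Il6st, close to the 24.2% and 26.5% of all CD4 T cells. At 1000 UMIs per cell the counts were 5 in ALLO and 10 in SYN CD4 T cells, against 0 in ALLO and 1 in SYN B cells. The thinned share was 0.945% in ALLO (0.308% to 2.19%) and 1.22% in SYN CD4 T cells (0.584% to 2.22%), and the intervals overlap. The 0 of 6980 thinned ALLO B cells allows a share with a UMI of both chains at that depth of up to 0.0430% at 3 counts, with an exact upper bound of 0.0528%, while 0.158% had both without thinning.

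Il17ra, the chain shared by receptors of the interleukin 17 family (ENSMUSG00000002897, chr6:120463247-120487559), was highest in myeloid cells, at 139 CPM in ALLO and 217 CPM in SYN. In ALLO the level there was 1.99-fold that of the next class and in SYN 2.67-fold, with intervals above 1. Of the lymphoid classes CD4 T cells had 69.7 CPM in ALLO and 75.3 CPM in SYN, and B cells had 63.3 and 71.9 CPM. At 1000 UMIs per cell 18.4% of ALLO and 20% of SYN myeloid cells had a UMI, against 6.53% and 7.43% of B cells. Without thinning these were 55.3% and 44.0% of myeloid cells and 19.7% and 20.6% of B cells. Foxp3+ T cells were lowest in ALLO, with B cells 1.61-fold above them (1.10 to 2.47), and next after myeloid cells in SYN: 26 UMIs gave 39.3 CPM in ALLO and 60 UMIs gave 81.5 CPM in SYN. The ratio was 0.482 with an interval from 0.292 to 0.776, and 5 of 135 ALLO against 13 of 158 SYN cells had a UMI after thinning, with overlapping intervals, or 16.3% and 29.7% of the unthinned cells.

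Stat3 (ENSMUSG00000004040, chr11:100885098-100939540) was read in every class at similar levels. In ALLO they ran from 70.0 CPM in CD8 T cells to 108 CPM in CD4 T cells, and no step between neighbouring classes exceeded counting error, although the ends of the order differed 1.54-fold (1.30 to 1.83). In SYN they ran from 74.7 CPM in gamma delta T cells to 152 CPM in myeloid cells, with 1 step off 1, between CD4 T cells at 120 CPM and CD8 T cells at 90.4 CPM. Foxp3+ T cells had 86.2 CPM in ALLO and 132 CPM in SYN, giving a ratio of 0.654 (0.463 to 0.916). CD8 T cells had a ratio of 0.774 (0.662 to 0.903) and CD4 T cells of 0.900 (0.766 to 1.05). By its value the ratio was below 1 in every class, with an interval below 1 in Foxp3+ T, CD8 T, B and myeloid cells. In gamma delta T cells it was 0.976 (0.508 to 1.88). In B cells the log2 ratio was -0.09 beside a median of -0.07 over all genes, and in myeloid cells -0.77 beside -0.29. Over the alternative settings the ratio reached 1.003 in B, 1.05 in CD4 T and 3.03 in gamma delta T cells.

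Socs3, the STAT3-induced inhibitor that binds gp130 (ENSMUSG00000053113, chr11:117966079-117970047), had 34.9 CPM from 82 UMIs in ALLO CD4 T cells and 56.2 CPM from 191 UMIs in SYN CD4 T cells. The ratio was 0.620 with an interval from 0.473 to 0.808. Foxp3+ T cells had 34.8 CPM in ALLO and 53.0 CPM in SYN, and CD8 T cells had 28.0 and 35.3 CPM, with intervals of the ratio that span 1. In gamma delta T cells 8 UMIs gave 26.5 CPM in ALLO and 20 UMIs gave 74.7 CPM in SYN, giving a ratio of 0.355 (0.135 to 0.841), beside the B cell marker sums of 921 and 4148 CPM given above. Myeloid cells had 59.4 CPM in ALLO and 107 CPM in SYN, the highest levels, within counting error of the next class in both. B cells were lowest in both libraries, at 13.9 CPM in ALLO and 12.6 CPM in SYN, and here the order of the libraries was the other way, with a ratio of 1.11 (0.944 to 1.29). At 1000 UMIs per cell 4.73% of ALLO and 6.08% of SYN CD4 T cells had a Socs3 UMI, against 12.1% and 18.0% without thinning. B cells had 1.43% and 1.33% after thinning and 4.31% and 3.53% before. Thinning brought the CD4 T cell ratio of Socs3 to 0.807, short of 1.5-fold.

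Hif1a, the oxygen-regulated factor that also drives glycolysis genes in T cells (ENSMUSG00000021109, chr12:73901375-73947530), was highest in Foxp3+ T cells, at 225 CPM in ALLO and 196 CPM in SYN. CD4 T cells came next with 141 CPM from 331 UMIs in ALLO and 92.7 CPM from 315 UMIs in SYN. The ALLO over SYN ratio in CD4 T cells was 1.52 (1.30 to 1.78), and in Foxp3+ T cells 1.15 (0.910 to 1.46). In ALLO the CD4 T cell level was 1.85-fold that of B cells, the next class, at 76.1 CPM. In SYN it was 1.08-fold that of B cells at 85.5 CPM, within counting error. CD8 T cells had 58.0 CPM in ALLO and 57.6 CPM in SYN, and gamma delta T cells 56.3 and 52.3 CPM. A single ALLO barcode of 24892 UMIs held 33 of the 331 UMIs in CD4 T cells, and without the top cell of each library the ratio was 1.46. After thinning, 11.5% of ALLO and 8.26% of SYN CD4 T cells had a UMI, against 7.26% and 8.37% of B cells. Before thinning the shares were 31.0% and 27.5% of CD4 T cells and 22.8% and 24.1% of B cells.

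Maf, whose product c-MAF drives Il21 and Il10 in helper T cells (ENSMUSG00000055435, chr8:115682942-115707794), had the steepest contrast between CD4 and CD8 T cells of the 9 genes. It had 57.8 CPM from 136 UMIs in ALLO and 30.6 CPM from 104 UMIs in SYN CD4 T cells, giving a ratio of 1.89 (1.45 to 2.46). CD8 T cells had 4.63 CPM in ALLO and 4.82 CPM in SYN, and B cells had 5.47 and 5.96 CPM, so CD4 exceeded CD8 T cells 12.5-fold in ALLO and 6.35-fold in SYN. Foxp3+ T cells were highest, with 109 CPM in ALLO and 144 CPM in SYN and a ratio of 0.756 (0.552 to 1.03). The distance between Foxp3+ and CD4 T cells was 1.88-fold in ALLO (1.39 to 2.52) and 4.71-fold in SYN (3.56 to 6.23), and these intervals do not overlap. Thinned to equal depth, 5.67% of ALLO and 2.55% of SYN CD4 T cells had a Maf UMI, against 0.587% and 0.704% of B cells, with 15.1% and 8.02% of CD4 T cells and 1.79% and 1.89% of B cells before thinning. The barcode that led Hif1a, of 24892 UMIs, also gave 13 of the 136 Maf UMIs, and without the top cell of each library the ratio was 1.79.

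Rora, the orphan receptor RORalpha (ENSMUSG00000032238, chr9:68653786-69388246), had its higher levels in T cells. Foxp3+ T cells had 45.4 CPM in ALLO and 67.9 CPM in SYN, CD4 T cells 29.8 and 20.3 CPM, gamma delta T cells 23.2 and 18.7 CPM, and CD8 T cells 11.5 and 9.87 CPM. B cells gave 8 UMIs in ALLO and 12 in SYN, or 0.310 and 0.518 CPM. Myeloid cells had 0 UMIs in ALLO, which allows up to 14.8 CPM at 3 counts, and 5 UMIs in SYN, or 6.92 CPM. The ratio in CD4 T cells was 1.47 (1.04 to 2.07), short of 1.5-fold with an interval above 1, from 70 UMIs in ALLO and 69 in SYN. After thinning 3.21% of ALLO and 2.19% of SYN CD4 T cells had a UMI, with 8.32% and 6.44% before thinning. B cells had 0.0287% and 0.0733% after thinning and 0.100% and 0.176% before.

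Ahr, the ligand-activated aryl hydrocarbon receptor (ENSMUSG00000019256, chr12:35497974-35535038), gave few UMIs in T cells. Foxp3+ T cells had 19.7 CPM in ALLO and 23.1 CPM in SYN, B cells had 13.1 and 10.9 CPM, CD4 T cells 7.23 and 7.95 CPM and CD8 T cells 2.68 and 4.13 CPM. B cells were 4.89-fold above CD8 T cells in ALLO and 2.63-fold in SYN. In B cells 338 UMIs in ALLO and 252 in SYN gave a ratio of 1.21 (1.02 to 1.42), the only member above 1 in B cells with an interval off 1. Gamma delta T cells gave 4 UMIs in ALLO and 7 in SYN. Foxp3+ T cells exceeded CD4 T cells 2.72-fold in ALLO (lower bound 1.21) and 2.91-fold in SYN (lower bound 1.49).

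**Figure D2:**
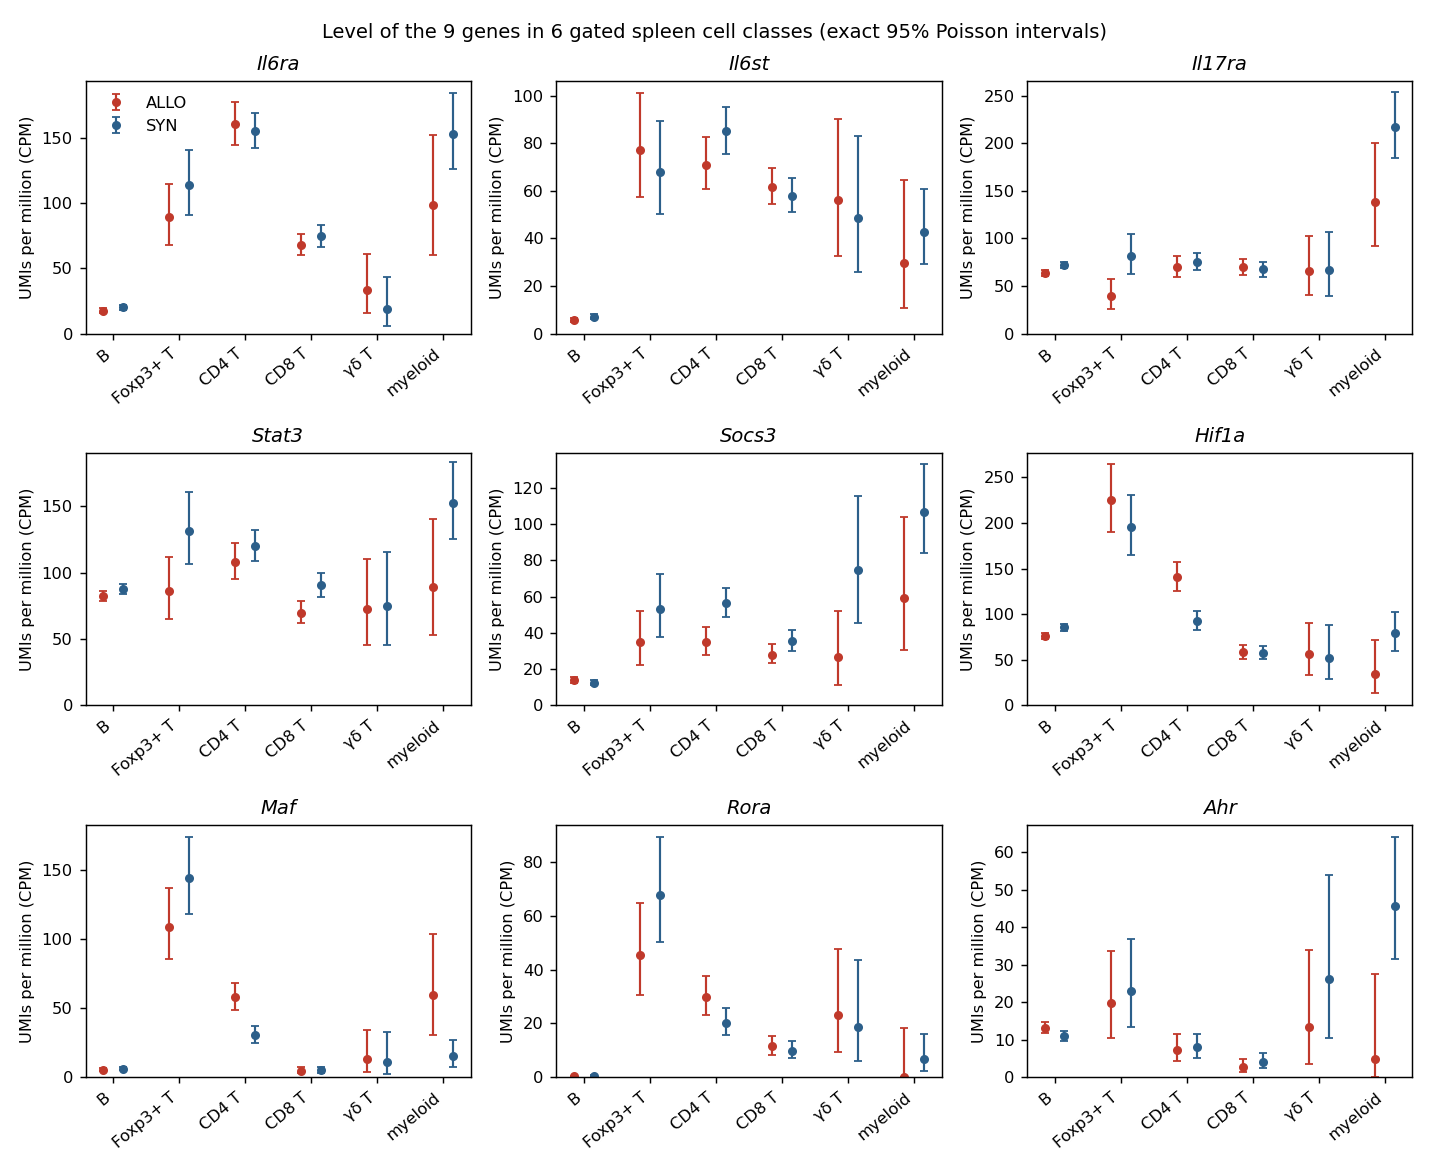
Level of each of the 9 genes (CPM) in the 6 gated classes of ALLO (red) and SYN (blue), with exact 95% Poisson intervals. Il6ra peaks in CD4 T cells at 161 and 156 CPM, Hif1a, Maf and Rora peak in Foxp3+ T cells, and Il17ra and Socs3 in myeloid cells.

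The counts over the 9 genes were set beside all genes. At least 2-fold above B cells in both libraries were 6 of 9 in Foxp3+ T cells (8.24% of all genes tested), 5 of 9 in CD4 T cells (8.12%), 4 of 9 in CD8 T cells (7.25%), 1 of 8 in gamma delta T cells (6.56%) and 5 of 8 in myeloid cells (7.99%). At least 2-fold below B cells in both was Ahr in CD8 T cells (12.2% of all genes). In Foxp3+ T (9.99%), CD4 T (13.1%), gamma delta T (15%) and myeloid cells (13.6%) it was 0 members. Il6st is the gene that passed in all 5 of these classes. Il6ra, Rora and Maf were at least 2-fold above CD8 T cells in CD4 T cells in both libraries (2.06% of all genes) and 0 members were as far below (3.71%). In Foxp3+ over CD4 T cells Ahr was above (3.82%) and 0 members below (1.38%).

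Between the libraries, at least 1.5-fold either way and with at least 20 UMIs over both, the CD4 T cell count was 2 of 9 higher in ALLO (Maf and Hif1a, against 7.82% of all genes) and 1 of 9 lower (Socs3, against 4.37%). Foxp3+ T cells had 0 higher (10.2%) and 3 lower (Il17ra, Stat3 and Socs3, against 11.1%). CD8 T cells had 0 higher (4.11%) and 1 lower (6.29%), which was Ahr with 11 UMIs in ALLO and 18 in SYN. B cells had 0 higher (2.86%) and 1 lower (5.06%), which was Rora, and gamma delta T cells had 0 of 5 higher (9.52%) and 1 lower (15.1%), which was Socs3. Myeloid cells had 1 of 8 higher (7.8%) and 6 lower (33%). After thinning, 1 of the 8 members that still had 20 UMIs passed in CD4 T cells, 0 of 6 in Foxp3+ T cells and 0 of 7 in CD8 T cells. Il17ra and Socs3 were not among the 6 in Foxp3+ T cells. Over 11 alternatives, thinning included, the Il17ra ratio there ran from 0.427 to 0.540. The ratio ran from 0.606 to 0.811 for Stat3 and from 0.520 to 1.05 for Socs3. In either direction the share of all genes was 7.92% in B, 21.3% in Foxp3+ T, 12.2% in CD4 T, 10.4% in CD8 T, 24.6% in gamma delta T and 40.8% in myeloid cells. The median log2 ratio of the members was -0.40 in Foxp3+ T cells, beside -0.02 over all genes tested there. It was -0.11 in CD4 T cells beside 0.02, with the sign turned to 0.06 by the mean over cells, and -0.71 in myeloid cells beside -0.29. In B, CD8 T and gamma delta T cells it lay at -0.17, -0.06 and -0.02, beside -0.07, -0.07 and -0.05.

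**Figure D3:**
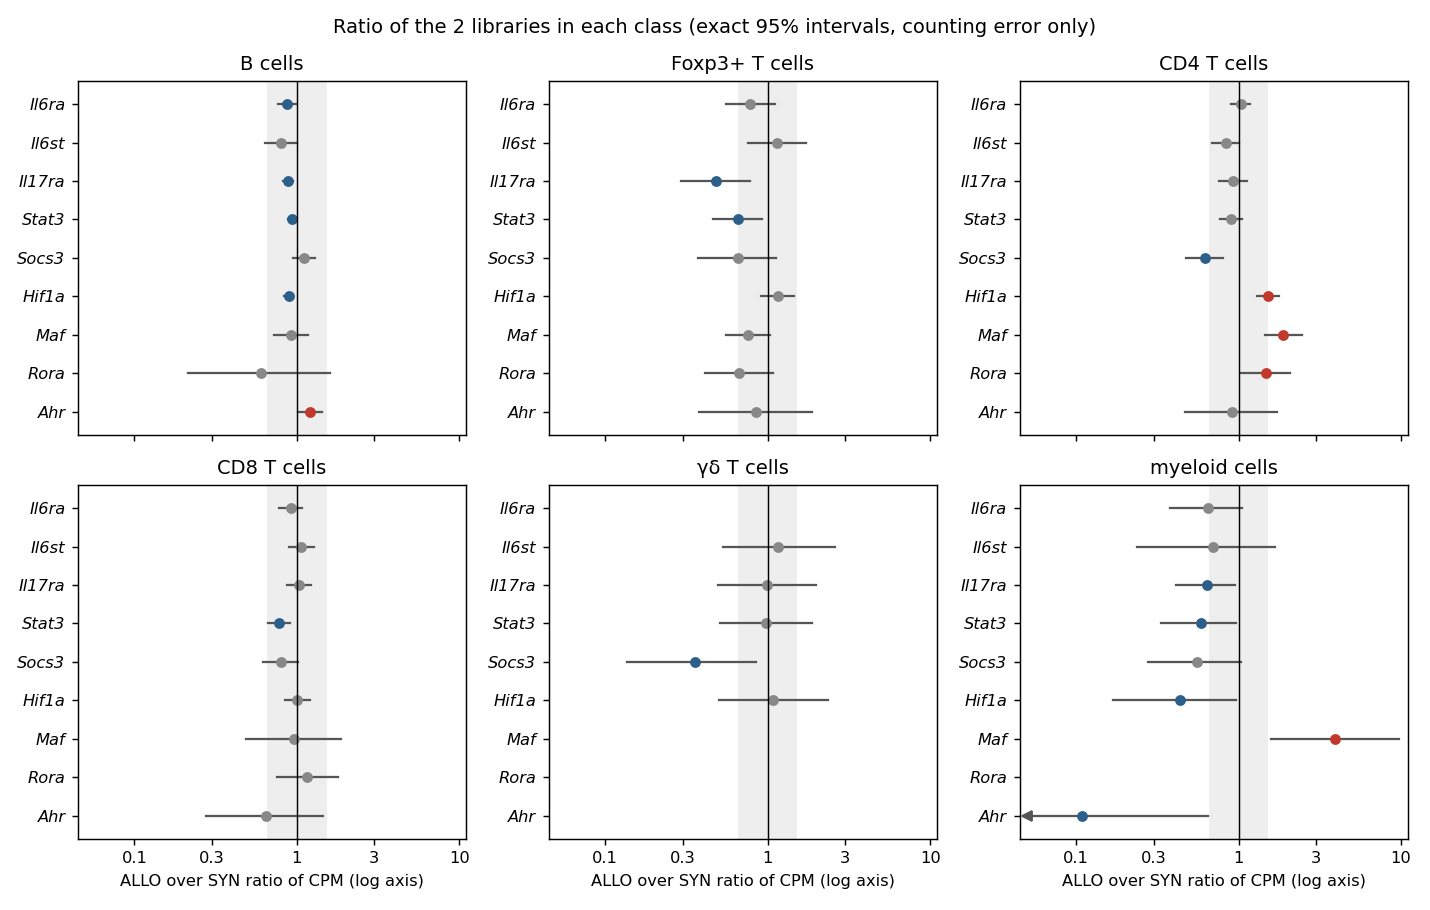
ALLO over SYN ratio (log axis) of each member in each class with exact 95% intervals for counting error, red where the interval lies above 1, blue where it lies below and grey where it spans 1. The grey band is within 1.5-fold, the arrow marks an interval that runs off the axis, and genes with under 20 UMIs have no point. In CD4 T cells Maf, Hif1a and Rora lie to the right of 1 and Socs3, at 0.620, to the left.

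CD4 T cells were divided by activation to see where the members lay. A cell with at least 1 UMI of S100a4, Cxcr3, Ccl5, Pdcd1 or Izumo1r was called activated, a gate that deeper cells meet more easily. Of the 529 ALLO cells 284 met it (53.7%), and of the 823 SYN cells 383 did (46.5%), while after thinning to 1000 UMIs the shares were 35.3% and 23.9%. Activated cells had median depths of 4244.5 UMIs in ALLO and 4194 in SYN, against 4042 and 4005 in the other cells. Maf and Rora were at least 2-fold above the other cells in both libraries, as were 2.65% of all genes tested, and 0 members were as far below (0.151%). Maf had 94.5 CPM in activated and 8.02 CPM in other ALLO cells, an 11.8-fold difference, and 52.8 and 9.24 CPM in SYN, a 5.71-fold difference. Rora differed 9.57-fold in ALLO and 2.73-fold in SYN, and Hif1a 2.90-fold and 1.86-fold. Il6ra went the other way, with 147 CPM in activated and 179 CPM in other ALLO cells (0.819-fold) and 141 and 170 CPM in SYN (0.830-fold), of which the SYN interval lay below 1.

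The difference between the libraries was then read within each subset. Among activated CD4 T cells the ALLO over SYN ratio was 1.79 for Maf (1.35 to 2.38), 1.61 for Hif1a (1.33 to 1.94) and 1.60 for Rora (1.09 to 2.36), beside 9.23% of all genes at least 1.5-fold higher in ALLO. Among the other CD4 T cells the intervals of Maf, Hif1a and Rora spanned 1, from 8, 67 and 5 ALLO and 16, 113 and 19 SYN UMIs, where 6.48% of all genes were at least 1.5-fold higher. Socs3 had nearly the same ratio in both, 0.638 in activated (0.431 to 0.932) and 0.627 in other cells (0.423 to 0.912), beside 6.91% and 7.78% of all genes at least 1.5-fold lower. Over the whole class, where the activated share was larger in ALLO, the ratio was 1.89 for Maf, 1.52 for Hif1a and 1.47 for Rora. In the class as a whole regulatory T cell genes also moved, at 210.5 CPM in ALLO and 143 CPM in SYN, and their part in the result was not tested.

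The 5 activation genes marked unlike cells, as values chosen for description after they had been seen show. Most activated cells had an Izumo1r UMI, 208 of 284 in ALLO and 297 of 383 in SYN, and these had 18.1 and 17.2 CPM of Rora. Cxcr3 marked 99 and 83 cells, with 91.3 and 79.4 CPM of Rora. Cells with a Pdcd1 UMI, 48 in ALLO and 45 in SYN, had the most Hif1a, at 583 CPM in ALLO and 304 CPM in SYN, and 227 and 142 CPM of Maf. Cells with an S100a4 UMI, 79 and 56, had 103 CPM of Rora in ALLO and 96.3 CPM in SYN. Hif1a was higher in ALLO within both, 1.91-fold (1.43 to 2.58) in cells with Pdcd1 and 1.89-fold (1.30 to 2.80) in cells with S100a4. Pdcd1 encodes the inhibitory receptor PD-1, and S100a4 is a calcium-binding protein common in memory T cells. Cells with a Ccl5 UMI, 49 in ALLO and 53 in SYN, had 55.4 and 89.6 CPM of Hif1a, with an interval that spans 1. For Rora the ALLO over SYN interval spanned 1 in each of the 5 sets. The ratio was 0.846 in cells with Pdcd1, 1.05 with Izumo1r, 1.15 with Cxcr3 and 1.07 with S100a4. It was 1.87 (0.956 to 3.80) in cells with Ccl5. The part of the mix of these sets in the Rora ratio of all activated cells was not tested. The same cell can appear in several of these sets.

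**Figure D4:**
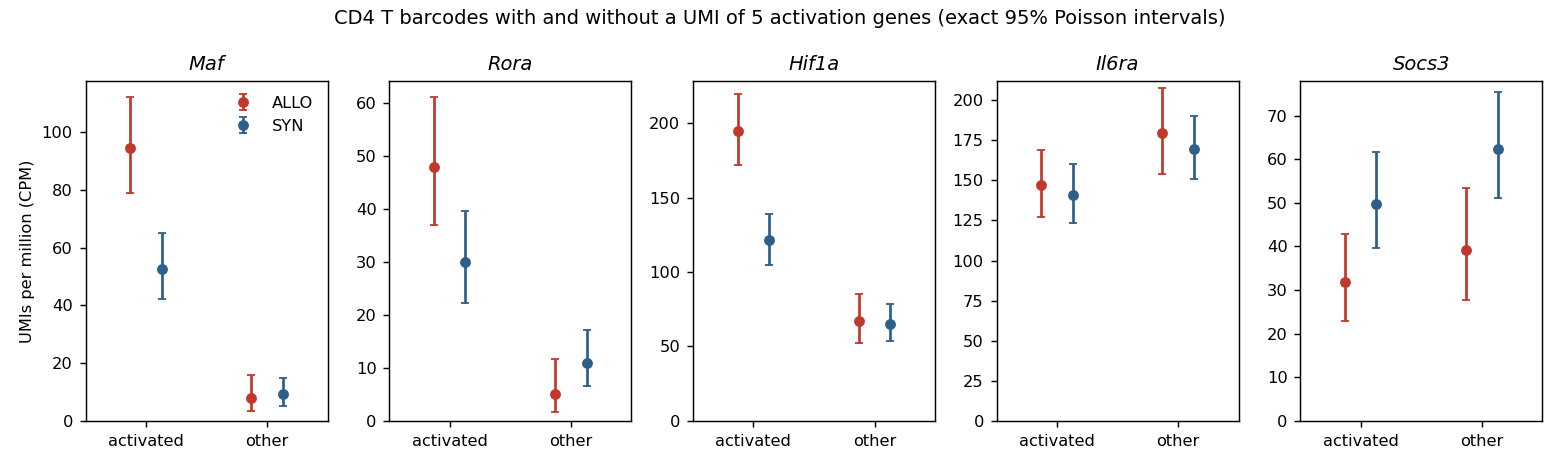
Level of 5 of the genes (CPM) in CD4 T cells with a UMI of an activation gene and in the other CD4 T cells, for ALLO (red) and SYN (blue), with exact 95% Poisson intervals. Maf, Rora and Hif1a separate the subsets and differ between libraries among activated cells, while Socs3 is lower in ALLO in both subsets.

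Myeloid cells were few, and their makeup differed between the libraries. S100a8 and S100a9, calcium-binding proteins abundant in neutrophils, reached 5 UMIs together in 12 of 38 ALLO and 79 of 175 SYN cells, and 20 ALLO and 52 SYN cells had Csf1r, the receptor of the monocyte and macrophage lineage, and stayed under that limit. Median depth was 7932.5 UMIs in ALLO and 2186 in SYN for the S100a8/S100a9-high cells, and 2930 and 5172 for the Csf1r-positive cells. The neutrophil markers summed to 154648 CPM in ALLO and 65494 CPM in SYN, and the part of these differences in the results was not tested. Ahr had 1 UMI in ALLO (4.95 CPM) and 33 UMIs in SYN (45.7 CPM), of which 26 were in Csf1r-positive cells and 0 in the S100a8/S100a9-high cells. The ratio of Ahr over all myeloid cells was 0.108 with an upper bound of 0.647. Il17ra stood at 293 CPM in ALLO and 307 CPM in SYN in Csf1r-positive cells, giving a ratio of 0.955 (0.564 to 1.55), against 0.638 (0.410 to 0.958) over the whole gate. In these cells 16.4% of all genes were at least 1.5-fold higher and 24.5% lower in ALLO. In S100a8/S100a9-high cells it was 31.2 CPM from 3 UMIs in ALLO and 141 CPM from 40 UMIs in SYN, where 10.6% of all genes were at least 1.5-fold higher and 50.6% lower in ALLO. Il17ra was at least 2-fold lower in S100a8/S100a9-high than in Csf1r-positive cells in both libraries. Of all genes tested 15.5% were as far below and 8.14% as far above. Il6ra was also as far below in both libraries. With 3 UMIs in ALLO S100a8/S100a9-high and 12 in ALLO Csf1r-positive cells it was under 20 UMIs and not among the genes tested. In the remaining 6 ALLO and 44 SYN myeloid cells, where 12.4% of genes were higher and 32.4% lower, no member's interval excluded 1. Hif1a over the gate had 34.6 CPM in ALLO and 78.9 CPM in SYN, giving a ratio of 0.439 (0.169 to 0.964). Socs3 in SYN was 151 CPM in S100a8/S100a9-high and 95.4 CPM in Csf1r-positive cells, with overlapping intervals, and over the gate its ratio was 0.557 (0.276 to 1.03). Maf was the member higher in ALLO myeloid cells, at 59.4 CPM against 15.2 CPM in SYN, but 1 ALLO barcode held 9 of 12 UMIs and 1 SYN barcode 7 of 11. Among barcodes of at least 2000 UMIs its log2 ratio was -1.61, the reverse.

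UMIs of Il6 and of the interleukin 17 genes were few. Over all used barcodes Il6 had 1 UMI in ALLO and 0 in SYN, Il17a had 3 and 0, and Il17f had 3 and 3. The 3 Il17a UMIs sat in 1 barcode that met no gate. Il23r had 7 and 9 UMIs, Il22 had 0 and 3, and Il17rc, the partner chain of Il17ra for interleukin 17A, had 3 and 4. Other gp130 ligands were easier to find: Clcf1 had 1297 UMIs in ALLO and 1360 in SYN, Ebi3, the shared subunit of interleukins 27 and 35, had 487 and 552, and Osm had 172 and 231. Clcf1 in B cells was 34.7 CPM in ALLO and 35.0 CPM in SYN, giving a ratio of 0.994 (0.903 to 1.09). Osm was higher in ALLO CD8 T cells, at 7.07 CPM against 3.67 CPM in SYN, giving a ratio of 1.93 (1.01 to 3.79). In myeloid cells it had 4 UMIs in ALLO and 31 in SYN, giving a ratio of 0.461 with an interval that spans 1 (0.118 to 1.30). Lifr, a receptor chain that pairs with gp130, had 50 UMIs in ALLO and 115 in SYN, with 1.63 and 2.94 CPM in B cells and a ratio there of 0.555 (0.368 to 0.827). Myeloid cells had 4.95 CPM of Lifr from 1 UMI in ALLO and 27.7 CPM from 20 UMIs in SYN. The 4 neutrophil markers summed to 4.07 CPM in ALLO and 475 CPM in SYN B cells, and their part in the Lifr ratio was not tested.

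Wider lists of the IL-6 and IL-17 pathways were counted in CD4 T cells, where 7.82% of all genes were at least 1.5-fold higher and 4.37% lower in ALLO. Of 15 JAK-STAT genes and brakes 2 were higher and 1 lower in ALLO, of 13 STAT3 targets 2 were higher and 2 lower, and of 14 counted adaptors and regulators of IL-17 signalling 0 were past it in either direction. Of 12 counted Th17 lineage genes 3 were higher (Maf, Hif1a and Il21) and 1 lower (Ccr6), of 5 counted Th17 brakes 0 were higher and 2 lower (Socs3 and Gfi1), and of 4 counted AHR pathway genes 0 passed. Socs3 stands on 3 of these lists, and Maf and Hif1a are among the 9 genes chosen. Ptpn11, which encodes the phosphatase SHP-2 that docks on gp130, had 92.7 CPM in ALLO and 52.1 CPM in SYN CD4 T cells, giving a ratio of 1.78 (1.45 to 2.18). Icos, a costimulatory receptor of activated helper T cells, had 66.3 and 42.7 CPM, giving a ratio of 1.55 (1.23 to 1.96). Bcl3, an atypical IkappaB protein and STAT3 target, was lower with Socs3, at 25.1 CPM in ALLO and 40.9 CPM in SYN, giving a ratio of 0.613 (0.444 to 0.837). Il21 and Socs2 were past 1.5-fold upwards and Ccr6, Gfi1 and Epas1 downwards, each with an interval that spans 1. Of 10 HIF-1 target genes counted in CD4 T cells 0 passed 1.5-fold, beside 12.2% of all genes either way, with a median log2 ratio of -0.14 beside 0.02 over all genes.

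In Foxp3+ T cells Bcl3 was lower in ALLO too, at 40.8 CPM in ALLO and 70.6 CPM in SYN (0.578, 0.349 to 0.937), and so was P4ha1, a collagen prolyl hydroxylase subunit and HIF-1 target, from 8 UMIs in ALLO and 31 in SYN (0.287, 0.114 to 0.639). In gamma delta T cells 7 of 12 JAK-STAT genes were at least 1.5-fold lower in ALLO, where 15.1% of all genes were, and 1 was higher (9.52%). The lower ones included Ptpn6 at 0.556 (0.378 to 0.811) and Adam10 at 0.309 (0.119 to 0.715). The B cell markers summed to 921 CPM in ALLO and 4148 CPM in SYN gamma delta T cells, and their part in these counts was not tested. In myeloid cells 8 of 11 STAT3 targets were lower in ALLO, where 33% of all genes were, beside the neutrophil marker sums given above. They included Fos at 490.0 CPM in ALLO and 1647 CPM in SYN and Junb at 529.6 and 1481 CPM. In CD8 T cells Tab3, a TAK1-binding adaptor, had a ratio of 2.12 (1.28 to 3.63), Ccr6 of 0.626 (0.394 to 0.979) and Pfkfb3, a glycolytic HIF-1 target, of 0.548 (0.346 to 0.853). The B cell markers there summed to 2727 CPM in ALLO and 3862 CPM in SYN and the neutrophil markers to 4.63 and 791 CPM, and their part in these ratios was not tested. In B cells Cebpd, a transcription factor of IL-17 responses, had 13 UMIs in ALLO and 41 in SYN, giving a ratio of 0.285 (0.140 to 0.542), and the neutrophil markers there summed to 4.07 CPM in ALLO and 475 CPM in SYN. Their part in the Cebpd result was not tested.

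Patterns most like each member were sought by correlation of log2(CPM + 1) over the 12 class-by-library values among 9881 genes. The points share libraries and depth, 6 come from each library, and r is a description. Il6st was most like Cd6 (r = 0.983), then Lat and Cd3e, which are T cell surface and signalling genes, of which Cd3e served in the gates. Rora was most like Cdipt (r = 0.982), then Tox and Ikzf2. For the others the closest genes were Rab32 for Il17ra (0.947), Ranbp9 for Il6ra (0.919), Mbd6 for Stat3 (0.914), Smdt1 for Maf (0.937), Sar1b for Hif1a (0.964), St8sia4 for Ahr (0.945) and Klhl9 for Socs3 (0.925). Among the 9 genes themselves Il6st and Rora were closest (r = 0.834), Il6ra and Il6st reached 0.680, and Stat3 and Socs3 reached 0.535.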

How the data were processed

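Spleen cells of 1 ALLO and 1 SYN library were captured with 10x Chromium 5′ v2 chemistry. The authors deposited raw UMI counts per gene and barcode, with a lowest barcode total of 500 UMIs in both. Per the submitters' processing notes Cell Ranger 6.0.2, the mm10 build and FastQC were used, and no doublet removal is named in the sources used here. Barcodes with at least 1000 UMIs were kept. Gates were B cells (at least 2 UMIs of Cd79a and Cd79b, 0 of Cd3d, Cd3e and Cd3g), Foxp3+ T cells (at least 1 of Cd3 and of Foxp3), CD4 T cells (at least 1 of Cd3 and of Cd4, 0 of Foxp3, Cd8a, Cd8b1 and Cd79a), CD8 T cells (at least 1 of Cd8b1, 0 of Cd4), gamma delta T cells (at least 1 of Cd3, 2 of Trdc) and myeloid cells (at least 2 of Csf1r and Lyz2). A barcode could count in more than 1 class, and doublets were not removed. Class totals ran from 202046 to 25786309 UMIs.

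UMIs were summed per class and given as counts scaled to 1000000 per class (CPM). Levels have exact Poisson intervals, ratios exact conditional binomial intervals and shares exact Clopper-Pearson intervals, all at 95%, for counting error only. A gene was compared between libraries with at least 20 UMIs over both. Cells were thinned without replacement to 1000 UMIs. With 1 library per group no test across samples was possible. The 9 members, the pathway and marker lists and the rules were chosen with earlier results of these data known, and the split of CD4 T cells by single activation genes and the genes singled out beyond the lists' counts were chosen after their values were seen. From each list up to 4 genes past 1.5-fold per class could be named, and some list genes are not reported here. Positions are from GENCODE vM21 (GRCm38, all 9 IDs matching the files) and promoters from RefSeq GRCm38.p6. Python 3.11.15, numpy 2.4.6, scipy 1.17.1, pandas 2.3.3, scanpy 1.11.5 and matplotlib 3.10.9 were used. Interval coverage was tested on simulated independent Poisson sums, the model the intervals are built on. The simulation leaves out UMIs gathered in single barcodes, so it cannot show coverage for that spread.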

Additional observations from a re-analysis of the deposited data

How the results depend on the processing

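No paired analysis was possible because each group has 1 library and shares only replicate number 1. The 76 alternative medians over the members lay inside the intervals of the reported medians, but 9 of them changed sign, in CD4 T, CD8 T and gamma delta T cells, where the reported medians were -0.11, -0.06 and -0.02 on the log2 scale. Of the ALLO over SYN ratios of single members 556 lay inside the reported interval and 14 outside it, and 7 past 1.5-fold changed direction. Of the ratios over B cells 921 lay inside and 48 outside, and 4 past 2-fold changed direction. A further 41 and 27 ratios below those folds changed sign. In CD4 T cells the ALLO over SYN ratio over 11 alternatives ran from 1.79 to 2.40 for Maf, 1.46 to 1.53 for Hif1a, 1.40 to 1.49 for Rora and 0.595 to 0.807 for Socs3. Hif1a thus lies at the 1.5-fold limit.

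Members past 1.5-fold numbered, with cells thinned to 1000 UMIs, 0 in B, 1 in CD4 T, 0 in CD8 T, 0 in Foxp3+ T and 2 in myeloid cells. After thinning 8 members had 20 UMIs in B, 8 in CD4 T, 7 in CD8 T, 6 in Foxp3+ T, 4 in myeloid and 0 in gamma delta T cells. In Foxp3+ T cells Il17ra and Socs3 were not among the 6. With the mean over cells they were 0 in CD8 T and 4 in myeloid cells, and with scaling to a median ratio of 1 they were 0 and 3. B cells had 0 at 2000 UMIs or more and without each gene's top cell. CD8 T cells had 0 at 500 UMIs or more, and with barcodes of 1 class only both CD8 T and gamma delta T cells had 0. Gamma delta T cells had 3 when a UMI in each library was enough. Members at least 2-fold above B cells in both libraries numbered 2 in CD8 T, 2 in gamma delta T and 3 in myeloid cells after thinning, and 3 in myeloid cells at 2000 UMIs or more. Gamma delta T cells also had 2 with barcodes of 1 class, the mean over cells, median-ratio scaling or without Scrublet doublets.

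Among ratios past those folds directions changed on the log2 scale as follows, the cause not tested. After thinning the ALLO over SYN value was 0.97 for Ahr in CD8 T cells, 0.79 for Ahr and -0.21 for Il6ra in gamma delta T cells and 0.075 for Socs3 in Foxp3+ T cells. With the mean over cells Ahr was 0.045 in CD8 T cells, and ALLO myeloid over B cells 0.74. At 2000 UMIs or more Maf in myeloid cells was -1.61 and Rora in B cells 0.29. Without the top cell Maf over B cells was -0.66 in ALLO gamma delta T and -0.060 in SYN myeloid cells, and with barcodes of 1 class -0.00465 in ALLO gamma delta T cells. Depth left 4 of the 9 members in gamma delta T cells and 1 in myeloid cells under 20 UMIs over both libraries.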
